A study of Mus musculus with 8 samples.

Results

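The genes described here are 10 genes of heart muscle, namely Myh6, Myh7, Myl4, Myl7, Myl2, Tnnt2, Tnni3, Actc1, Nppa and Sln, taken as a named set. In the mouse, a sleeve of atrial-type heart muscle surrounds the pulmonary veins and reaches into the lung, so RNA of whole lung carries these transcripts. Of 41174 probes on the array, 17 were assigned to the 10 genes. The gene symbols of the authors' matrix gave 14 of them, which cover 9 genes, and 3 more (the probe of Myl7 and a further probe each of Myh6 and Tnni3) were found by their RefSeq accession. All 17 probes were well above background in the lung channel on at least 4 of the 8 arrays, and 14 probes of 9 genes had enough unflagged spots to be tested, among 32645 probes tested in all.

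Lungs of 4 wild-type mice (WT1 to WT4) and 4 Scgb3a2-transgenic mice (TG1 to TG4) were measured. All were untreated C57BL/6 males of 8 to 10 weeks by the labels, or of approximately 8 weeks by the methods. The transgene places the mouse Scgb3a2 cDNA, which encodes a secretoglobin of the airway, under the human SP-C promoter, which drives expression in alveolar type II cells, and the mice come from 1 founder line. On each array the RNA of 1 mouse was labeled with Cy5 and a reference pool with Cy3, with no dye swap, and by the methods the pool held equal RNA of each sample. A log2 ratio of 1 means that a lung gave 2 times the signal of the pool. The lungs did not center on 0 for several members. The mean ratio was 0.65 for Myh7 (8 of 8 lungs above the pool), 0.62 for Tnni3 and 0.56 for Myl4 (7 of 8 each). For Myh6 it was -0.26, with 2 of 7 values above the pool. The ratio is therefore not read as a lung against the average lung. WT1, WT3, TG1 and TG4 were scanned on a first day and WT2, WT4, TG2 and TG3 on a second day, and each of 4 slides carried 1 lung of each genotype.

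Heart muscle contracts through thick filaments of myosin and thin filaments of actin that carry the troponin complex. Atrial muscle differs from ventricular muscle in its myosin light chains, with Myl4 and Myl7 in the atria and Myl2 in the ventricle, and in its release of atrial natriuretic peptide, the product of Nppa. Sln encodes sarcolipin, a small inhibitor of the calcium pump that is abundant in atrial muscle. Myh6 encodes the alpha myosin heavy chain of the adult mouse heart, and Myh7, its neighbor on chromosome 14, the beta chain of the fetal heart and of slow skeletal muscle. Tnnt2 and Tnni3 encode cardiac troponin T and troponin I, and Actc1 cardiac actin. In whole lung, fewer muscle cells and less RNA per cell cannot be told apart.

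The sequences just upstream are shown for 5 of the genes whose log2 ratio ranged over more than 1 across the lungs. They set what the promoters hold beside how the genes vary. Myl4 and Actc1 also ranged over more than 1, but their windows and a further window of Tnnt2 are not printed. RefSeq gives promoter windows on GRCm38.p6, from 250 bases before to 50 after a start site, for 9 of the 10 members, 12 windows in all, while Sln is named only. Capitals mark matches on either strand to TATAAA (the letters of a TATA box) and to AGATAA (letters read by GATA factors). They also mark CATTCC (letters read by TEAD factors) and the CArG box of serum response factor. A MEF2 site was also searched. The windows are chr14:54966558-54966857 on the minus strand for Myh6, chr11:5898733-5899032 on the minus strand for Myl7, chr1:135836084-135836383 on the plus strand for Tnnt2, chr7:4522479-4522778 on the minus strand for Tnni3 and chr4:148000472-148000771 on the plus strand for Nppa.
Myh6: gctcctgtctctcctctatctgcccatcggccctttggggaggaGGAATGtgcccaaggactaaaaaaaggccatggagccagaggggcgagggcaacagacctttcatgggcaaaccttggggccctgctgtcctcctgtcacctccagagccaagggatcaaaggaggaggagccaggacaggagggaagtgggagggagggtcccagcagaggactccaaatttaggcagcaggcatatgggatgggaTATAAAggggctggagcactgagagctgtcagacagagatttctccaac
Myl7: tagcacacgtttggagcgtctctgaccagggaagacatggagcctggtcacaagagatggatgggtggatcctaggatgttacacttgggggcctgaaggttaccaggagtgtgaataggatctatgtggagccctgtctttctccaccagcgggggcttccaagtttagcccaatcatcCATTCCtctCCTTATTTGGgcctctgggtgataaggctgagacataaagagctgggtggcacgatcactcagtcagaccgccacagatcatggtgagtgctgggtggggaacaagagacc
Tnnt2: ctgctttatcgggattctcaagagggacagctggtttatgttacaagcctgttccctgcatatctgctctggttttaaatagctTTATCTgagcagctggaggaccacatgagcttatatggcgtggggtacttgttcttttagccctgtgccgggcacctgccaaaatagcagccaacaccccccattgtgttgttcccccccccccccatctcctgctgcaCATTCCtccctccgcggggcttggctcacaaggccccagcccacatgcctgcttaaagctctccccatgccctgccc
Tnni3: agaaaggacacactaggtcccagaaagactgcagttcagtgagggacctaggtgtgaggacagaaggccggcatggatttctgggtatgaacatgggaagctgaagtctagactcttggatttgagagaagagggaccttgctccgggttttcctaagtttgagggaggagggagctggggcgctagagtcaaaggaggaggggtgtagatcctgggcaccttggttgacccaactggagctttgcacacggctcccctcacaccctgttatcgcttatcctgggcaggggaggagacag
Nppa: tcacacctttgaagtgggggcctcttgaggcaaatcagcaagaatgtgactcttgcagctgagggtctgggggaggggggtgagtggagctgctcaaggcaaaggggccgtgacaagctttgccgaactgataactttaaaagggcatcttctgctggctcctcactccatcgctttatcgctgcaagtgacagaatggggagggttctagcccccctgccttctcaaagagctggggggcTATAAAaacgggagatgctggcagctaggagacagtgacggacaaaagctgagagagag
TATAAA was found in 4 of the 12 windows of the members against 13.6% of 32841 promoter windows of the mouse, CATTCC in 4 against 14.7%, AGATAA in 2 against 11.2% and the CArG box in 2, those of Myl7 and Actc1, against 1.63%. The MEF2 site was in 0 of the 12 windows and in 3.19% of all. The window of Tnni3 held none of these letters, and neither did that of Myl4 or the further windows of Tnnt2 and Myh7. The TATAAA matches began at 2 from the start site in Myh6, -9 in Nppa, 34 in Actc1 and -216 in Myl2. The windows of Myh7 overlap, so the 12 windows are not independent. These are matches of letters, not binding sites.

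Each array was first checked for its depth and its labels. The median Cy5 signal was 204 to 277.5 with a median background of 55.5 to 59, and 1.72% to 6.46% of spots were flagged. Scgb3a2 was higher in the transgenic lungs, with a difference in log2 ratio of 0.88 (SE 0.24), an unadjusted limma p of 0.00329 and an exact permutation p of 0.0571. The genotypes overlapped for Scgb3a2, since WT3 at 0.58 lay above TG2 at 0.47. In the fit across all probes, the lowest adjusted p was 0.999999, so no probe passed an adjusted threshold, and the percent called at an adjusted p under 0.05 was 0.00. The labels do not say that the lungs came from separate litters, so the p-values measure the spread between these 8 samples.

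The reference pool itself did not give the same cardiac signals on both scan days. This was seen in the quantile-normalized log2 signal of the Cy3 channel, which holds the same pool by the labels on all 8 arrays. For Myl4, the pool gave 11.33, 11.50, 11.23 and 11.51 on the arrays of WT1, WT3, TG1 and TG4 of the first day. On the arrays of WT2, WT4, TG2 and TG3 of the second day, it gave 13.03, 12.89, 12.81 and 12.82. The days did not overlap, and the difference, adjusted for genotype, was 1.49 (SE 0.10), or 2.81-fold, with an adjusted limma p of 8.78e-05. For Tnni3, the pool was higher on the second day by 1.26 (SE 0.09, adjusted limma p 0.000145), or 2.4-fold. For Tnnt2 it was higher by 1.05 (SE 0.11, adjusted limma p 0.000751). For the brightest probe of Nppa it was higher by 0.85 (SE 0.11, adjusted limma p 0.00246), and for Actc1 and Sln by 0.85 and 0.81, with adjusted limma p of 0.0122 and 0.0143.

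In all, the pool was higher on the second day for 8 of 14 member probes at an adjusted p under 0.05, each by more than 1.5-fold. The background of this call was 6.45% of all probes, or 1.76% with more than 1.5-fold. Myh6 missed the threshold with a difference of 0.70 (SE 0.20, adjusted limma p 0.0627). Myh7, with 0.28 (SE 0.09, adjusted limma p 0.0825), and Myl2, with -0.17 (SE 0.14, adjusted limma p 0.484), did not pass it either. With the processed signals of the scanner software, centered on each array's median, the pool difference of Myl4 was 1.53 and that of Tnni3 1.32. By that processing, Myh6 at 0.72 (adjusted limma p 0.0184) and Myh7 at 0.39 (adjusted limma p 0.0211) passed as well, and 10 of 14 member probes were higher on the second day, against 10.1% of all probes. The pool signal of these genes was therefore not constant between the days. The lung channel shifted by similar amounts, by 1.51 for Myl4 and 1.25 for Tnni3, and a shift shared by both channels cancels in the log2 ratio. Each day held lungs of both genotypes, and the differences between the genotypes are also given within each day.

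In the lung channel, fewer member probes passed the threshold between the days than in the pool, with differences of similar size but wider standard errors. For Tnni3 the difference was 1.25 (SE 0.29) in the lungs and 1.26 (SE 0.09) in the pool. For Sln it was 1.10 (SE 0.34) and 0.81 (SE 0.15). In the Cy5 channel, Myl4 was at 11.96, 12.71, 10.71 and 11.60 in WT1, WT3, TG1 and TG4 of the first day. It was at 13.38, 13.24, 13.16 and 13.26 in WT2, WT4, TG2 and TG3 of the second day. The second day was higher by 1.51 (SE 0.28, adjusted limma p 0.0303). The lung channel was higher on the second day at an adjusted p under 0.05 for 3 of 14 member probes, the brightest ones of Myl4, Tnnt2 and Nppa, against 1.95% of all probes, and lower for 0, against 0.798%. Tnni3, at 1.25 (adjusted limma p 0.0526), Sln, at 1.10 (adjusted limma p 0.104), Actc1 (adjusted limma p 0.205) and Myh6 (adjusted limma p 0.144) did not pass. In the log2 ratio, which takes the pool away from the lung, 0 member probes differed between the days at an adjusted p under 0.05, and 0.0124% of all probes did.

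The spread within a day is given for both channels. The lungs were different mice of both genotypes, and the pool was the same on all arrays by the labels. Whether the pool was prepared and labeled once for both days is not stated. For Myl4 the SD over the 4 arrays of the first day was 0.83 in the lung channel and 0.14 in the pool, and over the 4 arrays of the second day 0.09 and 0.10. For Tnni3 the SDs of the first day were 0.78 in the lungs and 0.10 in the pool, against 0.17 and 0.09 on the second day. For Sln they were 1.00 and 0.24 on the first day, against 0.32 and 0.25 on the second. For Myh7 and Myl2, the SDs of the first day were 0.11 and 0.28 in the lungs and 0.10 and 0.30 in the pool. By the log2 ratio, the highest and the lowest lung for Myl4, Tnni3 and Sln (WT3 and TG1) were both scanned on the first day.

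**Figure D1:**
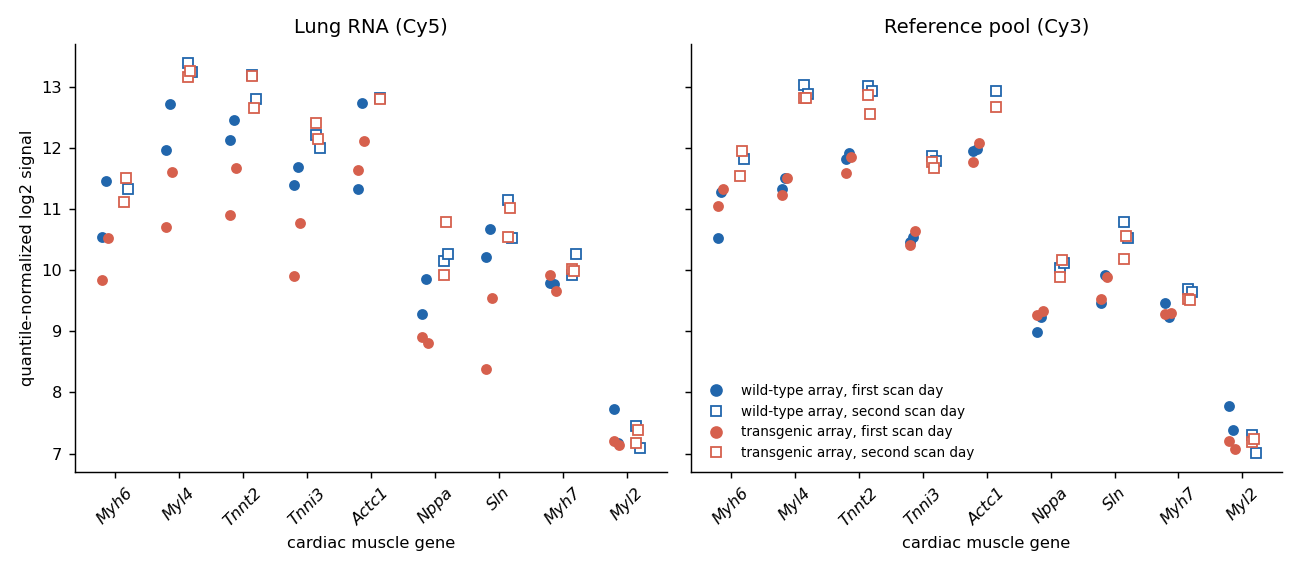
Quantile-normalized log2 signal of each array for the brightest tested probe of 9 cardiac muscle genes, with lung RNA (Cy5) on the left and the reference pool (Cy3) on the right. Filled circles are arrays of the first scan day, open squares those of the second, and color gives the genotype of the lung on the array. For Myl4 the pool sits between 11.23 and 11.51 on the first day and between 12.81 and 13.03 on the second.

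Over the arrays of both scan days, Myl4, an atrial myosin light chain, had a lower mean in the transgenic lungs at an unadjusted limma p under 0.05. For Myl4, the log2 ratio was 0.79, 0.61, 1.38 and 0.54 in WT1 to WT4 and -0.28, 0.54, 0.62 and 0.27 in TG1 to TG4. WT3 was the highest and TG1 the lowest lung, and TG3 lay above WT2 and WT4, so the groups overlapped. The transgenic minus wild-type difference was -0.54 (SE 0.22), with an unadjusted limma p of 0.0324, an adjusted p of 0.999999 and an exact permutation p of 0.143. The other probe of Myl4 gave -0.51 (SE 0.21), with an unadjusted limma p of 0.033.

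For Myl7, the single probe was flagged as an outlier spot on 5 of 8 arrays and was not tested. The unflagged log2 ratios were 1.26 in WT3, -0.61 in TG1 and 0.42 in TG4. With flagged spots kept, the ratios were 1.21, 0.67, 1.23 and 0.75 in WT1 to WT4 and -0.60, 0.84, 0.59 and 0.37 in TG1 to TG4. TG1 again stood lowest, and TG2 lay among the wild-type lungs. The difference with flagged spots kept was -0.67 (SE 0.27), with an unadjusted limma p of 0.0311 and an exact permutation p of 0.114. The net Cy5 signal of this probe ran from 2093 to 25456.5 over the arrays. Myl2, the ventricular light chain, had a net signal of 75 to 158 over a median background of 55.5 to 59, and its difference was 0.04 (SE 0.11, unadjusted limma p 0.705).

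Of the myosin heavy chains, Myh6 had a lower mean in the transgenic lungs. For Myh6, the log2 ratio was 0.21, 0.38 and -0.29 in WT1, WT3 and WT4, with WT2 flagged, and -0.99, -0.23, -0.27 and -0.61 in TG1 to TG4. WT4 lay among the transgenic lungs. The difference was -0.62 (SE 0.21), or 1.54-fold, with an unadjusted limma p of 0.0136 and an exact permutation p of 0.143. This was the only member probe past the study's criterion of 1.5-fold at an unadjusted p under 0.05. With flagged spots kept, Myh6 was at -0.54 (unadjusted limma p 0.0185), below 1.5-fold, and the only member probe past the criterion was that of Myl7. The further probe of Myh6 had a single unflagged value, -0.13 in TG1. For Myh7, the ratio lay between 0.40 and 0.83 in the wild-type and between 0.52 and 0.86 in the transgenic lungs, with TG1 highest. Its difference was 0.07 (SE 0.12, unadjusted limma p 0.588), and 0.04 by the other probe.

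The cardiac troponins followed the light chains but did not pass the unadjusted threshold. For Tnni3, the log2 ratio was 1.09, 0.56, 1.30 and 0.39 in WT1 to WT4 and -0.27, 0.85, 0.69 and 0.32 in TG1 to TG4. TG2 and TG3 lay above WT2 and WT4. The difference was -0.44 (SE 0.26, unadjusted limma p 0.113). The further probe of Tnni3 had 3 unflagged values, 1.08 in WT3, 0.19 in TG1 and 0.57 in TG2. For Tnnt2, the ratio ran from 0.03 to 0.75 in the wild-type and from -0.46 in TG1 to 0.52 in TG2, with a difference of -0.33 (SE 0.21, unadjusted limma p 0.143). A probe of Tnnt2 matched to a cDNA clone had a net signal of only 29 to 80, and its difference was -0.17 (SE 0.13). For Actc1, 3 lungs a genotype had values, and these were -0.37, 0.10 and 0.93 in WT1, WT2 and WT3 and 0.12, 0.30 and 0.23 in TG1, TG2 and TG4. The transgenic lungs lay within the wild-type range, and the difference was 0.00 (SE 0.27).

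The secreted peptide and the calcium pump inhibitor of atrial muscle varied widely among the transgenic lungs. For the brightest probe of Nppa, the log2 ratio was 0.45, 0.29, 0.79 and 0.35 in WT1 to WT4 and -0.15, 0.22, 0.82 and -0.37 in TG1 to TG4. TG3 was the highest of all 8 lungs and TG4 the lowest. The difference was -0.34 (SE 0.22, unadjusted limma p 0.157), and -0.53 (SE 0.31, unadjusted limma p 0.121) by the other probe. For Sln, the ratio was 0.91, 0.55, 0.93 and 0.20 in WT1 to WT4 and -0.92, 0.56, 0.68 and -0.17 in TG1 to TG4. TG1 was lowest, and TG2 and TG3 lay among the wild-type lungs. The difference was -0.61 (SE 0.31, unadjusted limma p 0.0744), while a further probe of Sln with a net signal of 21 to 30 gave -0.04 (SE 0.10).

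**Figure D2:**
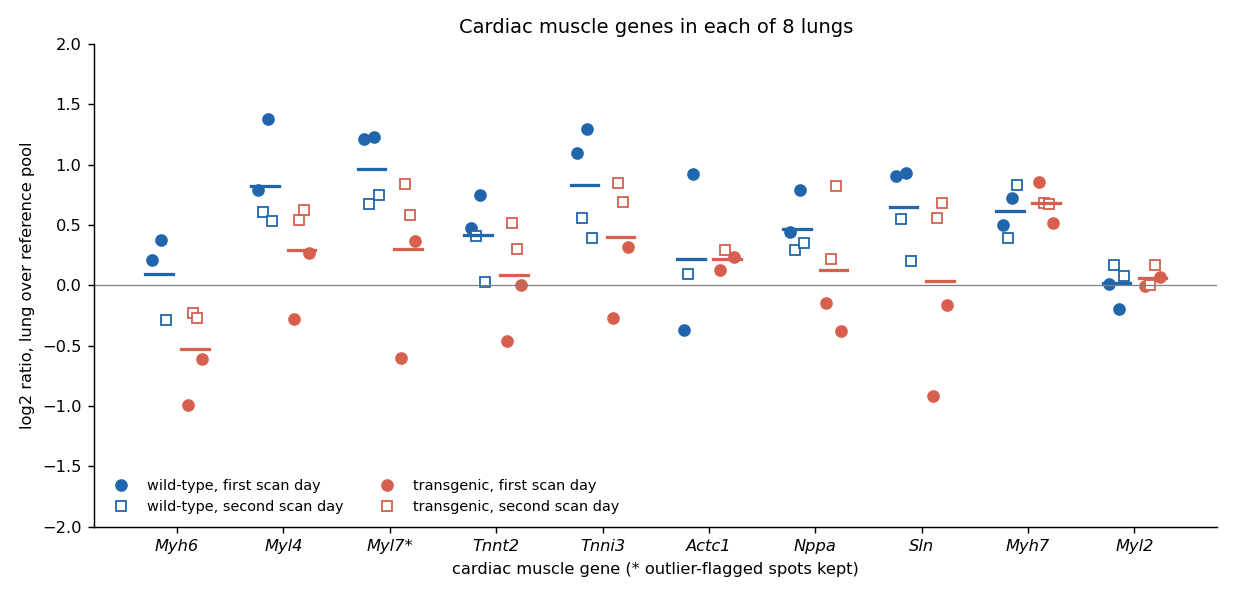
Log2 ratio of each lung over the reference pool for the 10 genes, by the brightest tested probe, with Myl7 shown with flagged spots kept. Each point is a lung, color gives the genotype, filled circles and open squares give the first and second scan day, and short lines are genotype means. The lungs of the first day reach from -0.28 to 1.38 for Myl4, and the lungs of the second day from 0.54 to 0.62.

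Over the 14 member probes tested, 10 were lower in the transgenic lungs, against 49.6% of all probes. At an unadjusted p under 0.05, 3 were lower and 0 higher, with a background of 0.971% lower and 1.12% higher, and 1 was also past 1.5-fold, with a background of 0.104%. At an adjusted p under 0.05, 0 of 14 passed, against 0.00% of all probes. The genotypes overlapped for each of the 14, while 0.904% of all probes had every transgenic lung below every wild-type lung and 1.07% the reverse. The median difference over the brightest tested probes of 9 members was -0.34, against 0.00 over all probes tested. Probes of the same gene and genes of the same muscle are not independent, and no test was made of the group.

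For Myh6, Myl4, Tnni3, Tnnt2, Nppa and Sln, the difference between the genotypes was large on the first scan day and near 0 or of the other sign on the second. Within the first day, WT1 and WT3 against TG1 and TG4, the transgenic minus wild-type difference was -1.09 for Myh6, -1.09 for Myl4, -1.17 for Tnni3, -0.84 for Tnnt2, -0.88 for Nppa and -1.46 for Sln. Within the second day, WT2 and WT4 against TG2 and TG3, it was 0.04, 0.01, 0.30, 0.19, 0.20 and 0.24 for the same genes. For Myh6, WT2 had no value, so WT4 was the only wild-type lung of that day. Myl7 with flagged spots kept showed -1.34 on the first day and 0.00 on the second. Myh7 was at 0.07 and 0.06 on the first and second day, Myl2 at 0.12 and -0.04, and Actc1 at -0.10 and 0.20. The second-day value of Actc1 was WT2 against TG2 alone. The further probes of Tnnt2 (-0.14 and -0.20) and Sln (0.00 and -0.07) had no large difference on the first day either. Over the 9 members, the median difference was -0.88 on the first day and 0.19 on the second. With at most 2 lungs a genotype, neither day was tested on its own.

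The change of the genotype difference between the days was tested as an interaction in limma. It was 1.47 for Tnni3 (SE 0.29, unadjusted limma p 0.000668), 1.70 for Sln (SE 0.33, unadjusted limma p 0.000692), 1.03 for Tnnt2 (SE 0.29, unadjusted limma p 0.00687) and 1.10 for Myl4 (SE 0.32, unadjusted limma p 0.00825). In all, 8 of 14 member probes had a signed difference that was less negative, or turned positive, on the second day at an unadjusted p under 0.05, against 1.47% of all probes, and these covered Myh6, Myl4, Tnnt2, Tnni3, Nppa and Sln. At an adjusted p under 0.05, 0 member probes passed, and 0.00% of all probes did. With scan day as a block, a probe with all 8 values keeps its difference by design, since each day holds equal numbers of both genotypes. The members' median was again -0.34, and 3 member probes were lower at an unadjusted limma p under 0.05, against 1.14% of all probes. With slide as a block, only Myh6 at -0.72 and Myl4 at -0.54 were under 0.05 among the brightest tested probes of the members (unadjusted limma p 0.0114 and 0.0292).

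**Figure D3:**
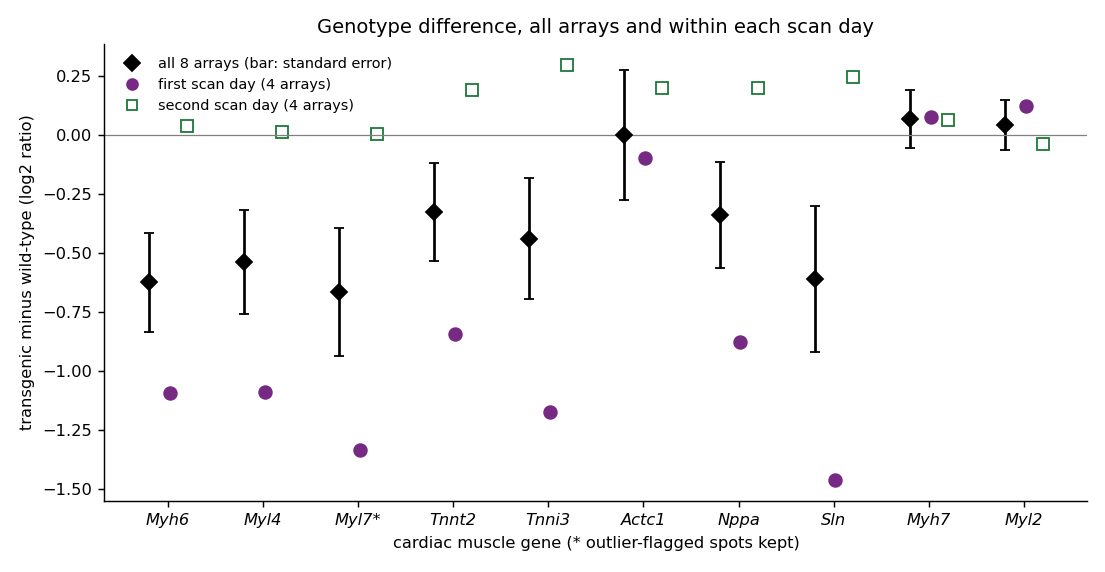
Transgenic minus wild-type difference in log2 ratio for the 10 genes over all 8 arrays (diamonds, with the standard error), within the first scan day (circles) and within the second (open squares), with Myl7 shown with flagged spots kept. For Sln the difference is -1.46 on the first day and 0.24 on the second.

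Single lungs weighed heavily on the averages. TG1 was the lowest lung for 5 of the 9 members tested, and WT3 the highest for 6 of 9. Without TG1, the difference was -0.14 for Tnnt2 (unadjusted limma p 0.427), -0.35 for Myl4 (unadjusted limma p 0.0934), -0.22 for Tnni3 (unadjusted limma p 0.342) and -0.29 for Sln (unadjusted limma p 0.226). Myh6 was at -0.47 (unadjusted limma p 0.0278), below 1.5-fold, and was the only 1 of 14 member probes under 0.05 without TG1. Without WT3, Myh6 was at -0.48 (unadjusted limma p 0.0625) and Myl4 at -0.36 (unadjusted limma p 0.101), so neither passed. Myl4 also missed the threshold without WT1 (unadjusted limma p 0.0516) and without TG4 (unadjusted limma p 0.057). Other lungs acted the other way. Without WT4, Tnni3 and Sln reached -0.59 and -0.76 (unadjusted limma p 0.0497 and 0.0447). Without TG2, Tnnt2, Tnni3 and Sln reached -0.47, -0.59 and -0.78 (unadjusted limma p 0.0436, 0.0474 and 0.0344). Without TG3, Sln was at -0.82 (unadjusted limma p 0.0222) and Nppa at -0.57 (unadjusted limma p 0.00699), while Nppa was at -0.17 without TG4 (unadjusted limma p 0.434). For Myh7, TG1 was the highest of the 8 lungs.

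The cardiac genes varied more between lungs than most of the transcripts measured. The log2 ratio ranged over more than 1 across the lungs, or 2-fold, for 9 of 14 member probes, against 6.45% of all probes. The range was 1.85 for Sln, 1.65 for Myl4, 1.57 for Tnni3 and 1.36 for Myh6, each wider than that of at least 98.4% of the probes tested, while the median range of all probes tested was 0.52. It was 0.46 for Myh7 and 0.36 for Myl2.

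Several members correlated across the lungs. Over 8 lungs, Tnnt2 and Tnni3 correlated with r = 0.96 (rho = 0.95, exact permutation p 0.000223, adjusted over 35 pairs 0.00195). Tnni3 and Sln correlated with r = 0.95 (rho = 0.98, exact permutation p 0.000124, adjusted 0.00195), and Myl4 and Tnni3 with r = 0.94 (rho = 0.93, exact permutation p 0.000744, adjusted 0.00434). Among Myl4, Tnnt2, Tnni3, Nppa and Sln, r ran from 0.69 to 0.96 over 10 pairs, of which 6 had an adjusted exact permutation p under 0.05. The lowest value was that of Tnnt2 with Nppa (rho = 0.52, exact permutation p 0.0612, adjusted 0.143). Without the 2 lungs farthest from the median, mostly TG1 and WT3, the r of these 10 pairs ran from 0.45 to 0.95, and centered within each scan day from 0.67 to 0.98.

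Myh6, with 7 lungs, correlated with Tnni3 at r = 0.97 (rho = 1, exact permutation p 0.000198, adjusted 0.00195). Actc1, with 6 lungs, gave r of 0.44 with Myl4, 0.32 with Tnnt2, 0.26 with Tnni3, 0.33 with Nppa and 0.12 with Sln, each with an adjusted exact permutation p of 0.585 or more. For Myh7 and Myl2, the 15 pairs gave r from -0.65 to 0.43, 13 of them below 0, and 0 had an adjusted exact permutation p under 0.05. The probe of Myl2 was dim, with a net signal of 75 to 158. Of all 35 pairs, 10 had an adjusted p under 0.05 by Pearson's r and 11 by Spearman's rho. Each scan day holds 4 arrays, too few for a correlation of its own, and all values of a lung share 1 array.

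**Figure D4:**
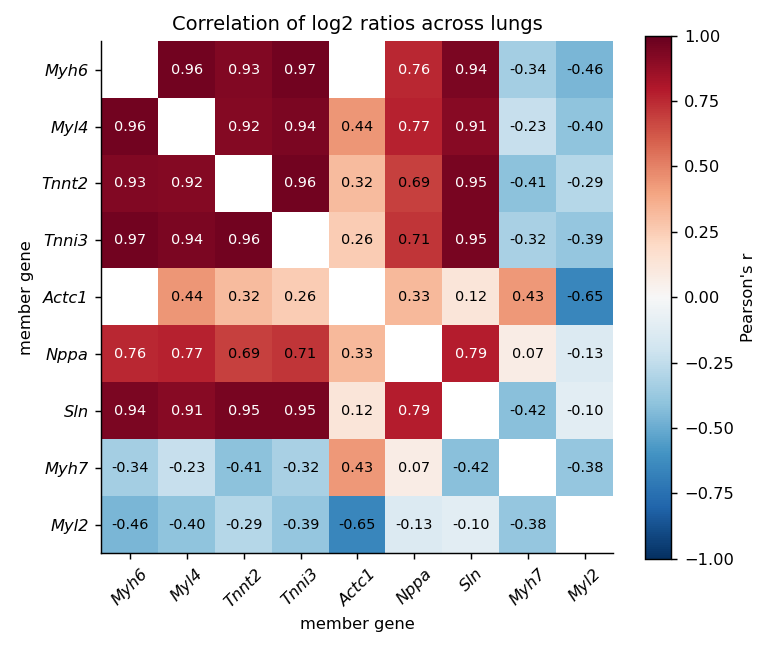
Pearson's r of the log2 ratios across 6 to 8 lungs for each pair of 9 cardiac muscle genes (color scale from -1 to 1), with Myl7 left out and the pair of Myh6 and Actc1, which shared too few lungs, blank. Myh6, Myl4, Tnnt2, Tnni3, Nppa and Sln form a block with r of 0.69 or more, while Myh7 and Myl2 lie at 0.43 or less with each gene shown. The probe of Myl2 is dim, with a net signal of 75 to 158.

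The 10 genes most like Myl7 over the 8 lungs were taken from 31111 probes with flagged spots kept. Mybphl, a myosin-binding protein, came first with r = 0.98, followed by Cspp1 and Pld1 with 0.97 each. Tpm1 (tropomyosin) had r = 0.97, Myh8 (perinatal myosin heavy chain) 0.96, Fabp3 (the fatty acid-binding protein of heart) 0.95 and Myoz2 (calsarcin of the Z-disc) 0.95, and 3830406C13Rik, Rabgef1 and Zxda filled the list of 10 with 0.95 to 0.96. Without TG1 and WT3, r was 0.92 for Mybphl and 0.77 for Zxda. For Tnni3, whose probe had all 8 values, Cox6a2, a subunit of muscle cytochrome oxidase, came first with r = 0.98, followed by Nbeal1 with 0.98, Fabp3, Ankrd57 and Secisbp2l with 0.97, and Srr, Hrc, 2610301B20Rik, Zxda and Myoz2 with 0.96. The pool shifted between the days by 1.24 for Mybphl and 1.04 for Cox6a2, but by 0.07 for Cspp1.

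The rest of the cardiac sarcomere was read from a list of other genes. Of 19 genes tested of the sarcomere and Z-disc, 18 were lower in the transgenic lungs, against 49.6% of all probes, with a median of -0.26, and 4 (Myom2, Myoz2, Tcap and Ttn) had an unadjusted p under 0.05, against a background of 0.971%. Myom2, a protein of the M-band, was at -0.68 (SE 0.20, unadjusted limma p 0.00656), at -1.15 on the first day and -0.20 on the second. Each transgenic lung lay below each wild-type lung for Myom2, as for 0.904% of all probes. Myoz2 was at -0.57 (SE 0.23, unadjusted limma p 0.0289), at -1.14 on the first day and 0.00 on the second. Tcap, the titin cap, was at -0.47 (SE 0.16, unadjusted limma p 0.0142) over 6 values. Its wild-type values were those of WT1 and WT3, so no wild-type lung of the second day had a value. Tcap and Mybpc3 (4 values) also had each transgenic value below each wild-type value. Des, the intermediate filament desmin, was the only gene of the list with a higher mean, at 0.12 (SE 0.11). The pool was higher on the second day at an adjusted p under 0.05 for 12 of the 19, against 6.45% of all probes.

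Of 15 genes of muscle energy supply, 11 were lower, against 49.6% of all probes, with a median of -0.10. At an unadjusted p under 0.05, 2 were lower, against 0.971% of all probes. Ckm, the muscle creatine kinase, was at -0.44 (SE 0.15, unadjusted limma p 0.0138), and at -0.59 and -0.30 on the first and second day. Its transgenic lungs all lay below its wild-type lungs, as for 0.904% of all probes. Ckmt2, the creatine kinase of muscle mitochondria, was at -0.55 (SE 0.25, unadjusted limma p 0.0471), with -1.14 and 0.03 on the first and second day, and with scan day as a block it missed the threshold (unadjusted limma p 0.0577). Mb (myoglobin) was at -0.47 (SE 0.29, unadjusted limma p 0.135), with -1.09 and 0.14 on the 2 days. The pool was higher on the second day for 9 of the 15, against 6.45% of all probes.

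Genes of the calcium store, the ion channels and the cardiac transcription factors showed no common direction. Of 17 calcium and channel genes, 8 were lower and 9 higher, with a median of 0.01, and 0 had an unadjusted p under 0.05. Jph2 (junctophilin) was at 0.30, Casq2 (cardiac calsequestrin) at -0.30 and Kcnj3, an atrial potassium channel, at -0.18. With scan day or slide as a block, Jph2 had an unadjusted limma p of 0.024 or 0.0303. Of 14 transcription factors, 7 were lower and 7 higher, with a median of 0.01, and 0 had an unadjusted p under 0.05. Mef2c was at 0.32, Nkx2-5 at 0.19 and Irx4 at -0.19. With slide as a block, Mef2c and Irx4 had unadjusted limma p of 0.0137 and 0.00794, at 0.49 and -0.39. Of 8 genes of peptide processing and receptors, 7 were lower, with a median of -0.14. Bmp10, a growth factor of the atria, was at -0.19 (unadjusted limma p 0.0575), Adm at -0.18 and Npr1, the receptor of the Nppa peptide, at -0.15. Many genes of these lists are also used by other cells of the lung.

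Lists of skeletal and smooth muscle were read in the same way. Of 19 skeletal muscle genes tested, 14 were lower, with a median of -0.08, and 0 had an unadjusted p under 0.05. Myl1 was at -0.34, Myh4 at -0.28 and Myh2 at -0.26. With slide as a block, Myl1 and Myh4 had unadjusted limma p of 0.0113 and 0.0297, and with scan day as a block Myl1 had 0.036. The mean log2 ratio of this list ran from -0.05 to 0.23 over the wild-type lungs and from 0.01 to 0.04 over the transgenic lungs. Of 9 smooth muscle genes, 4 were lower and 5 higher, with a median of 0.06 and 0 with an unadjusted p under 0.05. Lmod1 was at -0.10, Actg2 at 0.10 and Cnn1 at 0.09. Neither list was tested against the members.

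Several genes of fat and of type II cells were also lower in the transgenic lungs. Of 9 adipose genes, 8 were lower in the transgenic lungs, against 49.6% of all probes, with a median of -0.48, and 3 were lower at an unadjusted p under 0.05, against 0.971%. Adipoq (adiponectin) was at -0.89 (SE 0.25, unadjusted limma p 0.00485), Fabp4 at -0.87 (SE 0.34, unadjusted limma p 0.0269) and Lpl at -0.78 (SE 0.20, unadjusted limma p 0.00392, 5 values). The mean log2 ratio of the list ran from 0.35 to 0.74 over the wild-type lungs and from -0.51 in TG4 to 0.48 over the transgenic lungs. On the first scan day it was 0.74 and 0.67 in WT1 and WT3, and 0.21 and -0.51 in TG1 and TG4. On the second it was 0.36 and 0.35 in WT2 and WT4, and 0.08 and 0.48 in TG2 and TG3. All 6 type II cell genes were lower, with a median of -0.59, and 3 were lower at an unadjusted p under 0.05, against the same 0.971%. Lamp3 was at -0.96 (SE 0.37, unadjusted limma p 0.0274), Sftpa1 at -0.75 (SE 0.29, unadjusted limma p 0.0238) and Sftpc (surfactant protein C) at -0.60 (SE 0.41, unadjusted limma p 0.17). Their mean ran from 0.32 to 1.42 over the wild-type lungs and from -0.07 to 0.59 over the transgenic lungs. On the first scan day it was 0.79 and 1.42 in WT1 and WT3, and -0.05 and -0.07 in TG1 and TG4. On the second it was 0.69 and 0.32 in WT2 and WT4, and 0.45 and 0.59 in TG2 and TG3. By these means, both lists had the genotypes apart on the first day and overlapping on the second, as several heart muscle genes did. The pool did not differ between the days at an adjusted p under 0.05 for the 6 type II cell genes, and did for 5 of the 9 adipose genes. The part of these tissues in the result for the heart muscle genes was not tested.

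Across lungs, Tnni3 was set beside 11 genes, namely Acta1 and Myh4 of skeletal muscle, 1 gene each of the other tissues, and Scgb3a2. Sftpc correlated with Tnni3 over 7 lungs at r = 0.93 (rho = 1, exact permutation p 0.00278, adjusted over 11 tests 0.0306), and at 0.97 without TG1 and WT3. With Myl7 and flagged spots kept, the same correlation over 8 lungs was r = 0.79 (rho = 0.71, exact permutation p 0.0271, adjusted 0.253), and 0.60 without TG1 and WT3. The other 10 genes had an adjusted exact permutation p of 0.399 or more with Tnni3. Among them, Adipoq gave r = 0.49 (rho = 0.62), Acta1 -0.60 (rho = -0.54, 7 lungs), Myh4 0.55 (rho = 0.33), Myh11 -0.33 (rho = -0.39, 7 lungs) and Pecam1 0.66 (rho = 0.57). Without TG1 and WT3, r was -0.28 for Acta1 and -0.67 for Myh4, so the sign for Myh4 rests on those lungs. Scgb3a2 itself gave r = -0.30 (rho = -0.33, exact permutation p 0.479, adjusted 0.581).

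**Figure D5:**
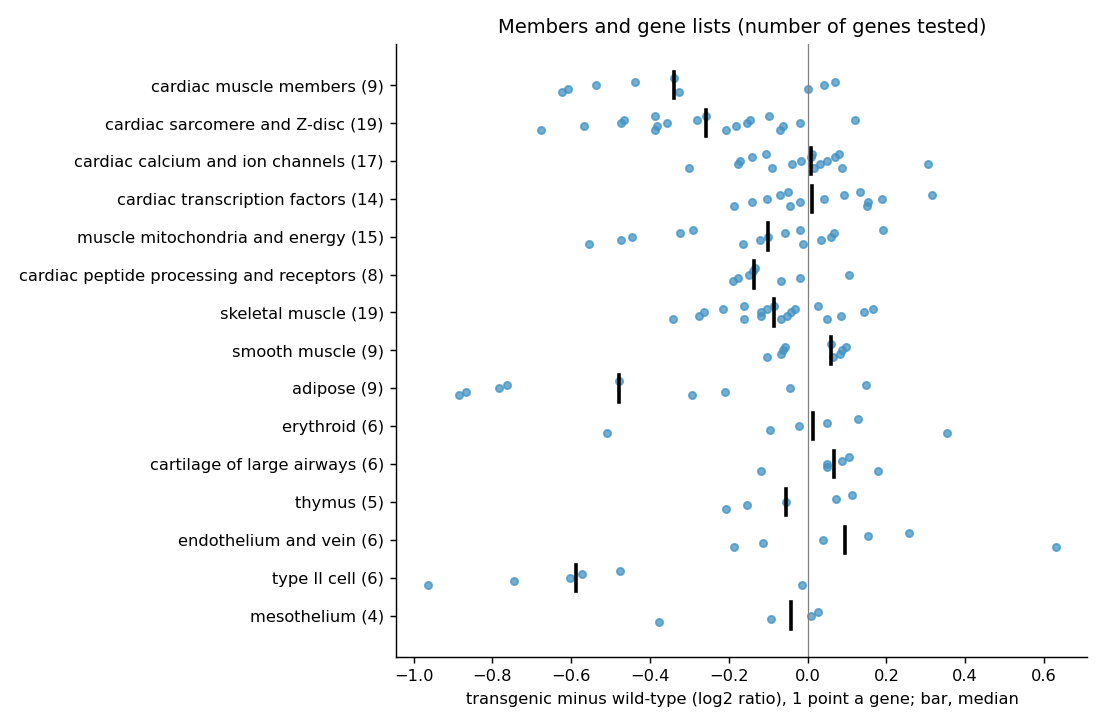
Transgenic minus wild-type difference in log2 ratio for each gene tested (points, brightest tested probe) of the cardiac muscle members and of 14 other lists, with the number of genes in parentheses and the list median as a bar. The medians lie at -0.34 for the members, -0.26 for the cardiac sarcomere and Z-disc, -0.48 for adipose and -0.59 for type II cell genes.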

How the data were processed

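For each of 8 arrays (4 wild-type, 4 transgenic lungs, grouped by the labels), the authors deposited the spot output of Agilent Feature Extraction, with raw and processed intensity per channel and a log10 ratio of Cy5 over Cy3. The file headers give version 10.10.1.1 and the submitters' processing notes 11.0.1.1. A GeneSpring matrix, in which the authors deposited log2 ratios of Cy5 over Cy3, was used for gene symbols and as an alternative. Raw median signals were corrected with normexp (offset 50, fitted on unflagged spots), normalized by loess (span 0.3) and averaged per probe in R 4.3.3 with limma 3.58.1, and flagged spots were left out. A probe was tested when well above background in Cy5 on at least 4 arrays, with 2 values per genotype (33970 and then 32645 probes). Genotypes were compared with limma, unpaired and two-sided, with Benjamini-Hochberg adjustment over all probes tested. Single values were also compared by exact permutation; with 4 lungs on each side the smallest p is 0.0286. The channels were quantile-normalized for the comparison of scan days, with genotype in the model. Correlations were tested by exact permutation in Python 3.11.15. Genes are represented by the brightest of their tested probes. All member probes are reported, and of each other list the 3 genes with the largest difference; further genes under an unadjusted p of 0.05 or of the opposite sign were named after their values were seen, as was the Tnni3 list of most similar genes. The members and gene lists were chosen with earlier results of these data known.

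On simulated data of 32645 probes for transgenic against wild-type, 80% of 100 probes with a 2-fold change were recovered by limma, and 97% of 100 with a 4-fold change. In the same data, 7 unchanged probes were also called. The noise was drawn independently for each probe, without effects shared by an array or scan day. These shares are therefore not the chance of finding such a change in the lungs measured. Scan day and slide as blocks, other backgrounds, normalizations and filters, the methods' t-test and leaving out each mouse were alternatives. The analyses within scan days, the interaction, the pool channel, the Tnni3 anchor and the settings without TG1 in correlations were added after seeing the data. The number of arrays limits the precision. Ratios of the scanner's log10 column were not used in the text.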

Additional observations from a re-analysis of the deposited data

Results flagged for a closer look

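Within a genotype, 25 groups of 4 values of the member probes were looked at, and in 2 of them a single lung stood apart by Dixon's criterion, which chance meets in about 1 in 20 groups. TG1 lay at -0.29 for the further probe of Myl4, with a gap of 0.86 of the range to the next transgenic lung. WT3 lay at 0.26 for the further probe of Sln, whose net signal was 21 to 30, with a gap of 0.84 of the range.

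The reference channel, against which each lung is set on its own array, differed between the scan days, as the lung channel did for Myl4, Tnnt2 and Nppa. In the log2 ratio, 0 member probes differed between the days at an adjusted limma p under 0.05. Between the scan days, the pool rose by 1.49 and 1.06 for the probes of Myl4, by 1.05 for Tnnt2, by 1.26 for Tnni3, by 0.85 for Actc1, by 0.85 and 1.01 for the probes of Nppa and by 0.81 for Sln, all in log2 signal at an adjusted limma p under 0.05.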

How the results depend on the processing

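With 4 lungs a genotype, 0 member probes passed an adjusted p under 0.05 in each of the 23 alternatives that gave a test (the main count at an unadjusted p under 0.05 was 3). The median difference of the members, -0.34, ran from -0.54 to -0.22 when each mouse was left out, was -0.11 with array weights, and was -0.88 on the first scan day alone and 0.19 on the second. Of the member probes, 1 changed by over 1.5-fold with an unadjusted p below 0.05. This count was 0 with normexp fitted on all spots, with the authors' matrix, with the lung channel alone, with array weights and with the methods' t-test. With flagged spots kept it stayed at 1, but by the probe of Myl7 in place of that of Myh6. The count was 4 with median-centring in place of loess and 2 with the replicate block, which pairs lungs by number. Deviations of same-numbered lungs correlated at only 0.32, 0.25, -0.08 and -0.21, and 2 of 4 numbers correlated best with their own. Lungs that shared a slide correlated at 0.32, 0.25, 0.30 and 0.08, and the count was 1 with slide as a block. When each mouse was left out, the count ran from 0 to 5. It was 0 without WT1, WT3 or TG1, 2 without WT2, 5 without WT4 or TG2 and 4 without TG3. Over all probes, 75 passed this rule, against 33 with normexp fitted on all spots, 221 with an offset of 0, 371 with processed signals, 783 in the authors' matrix, 27 by the methods' t-test, 121 with slide as a block, 49 with array weights and, when each mouse was left out, 49 without WT3, 167 without WT4, 116 without TG3 and 153 without TG4.

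Signs turned on the second scan day for Myh6 (0.038), Myl4 (0.013), Tnnt2 (0.19), Tnni3 (0.30), Nppa (0.20), Sln (0.24) and Myl2 (-0.039). For Myh6, WT4 was the only wild-type lung with a value on that day. Values near 0 also turned, namely Actc1 with normexp on all spots (-0.091), processed signals (-0.012), median-centring (-0.073), the lung channel alone (-0.11) and the first scan day (-0.099), Myh7 with median-centring (-0.029) and the lung channel (-0.045), and Myl2 with the lung channel (-0.14). Leaving out each mouse moved Actc1 from -0.29 to 0.35, Myh7 from -0.0033 to 0.14 and Myl2 from -0.028 to 0.092. The median range of the members over the lungs, 1.30, was 1.98 in the lung channel alone, which keeps the shift between days. The cause was not tested.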

Other observations

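Lists of the other tissues that a lung sample can hold were also read. Of 6 endothelial and vein genes, 4 were higher, with a median of 0.10, and Kdr, a receptor of endothelial growth factor, was at 0.63 (SE 0.20, unadjusted limma p 0.00979), the only one under 0.05. It was at 1.03 on the first scan day and 0.24 on the second, and the pool was higher on the second day for Kdr by 0.52 (adjusted limma p 0.0105). Cdh5 was at 0.26 and Vwf at -0.19.

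Of 6 erythroid genes, 3 were lower and 3 higher, with a median of 0.01. Hbb-b1, a globin of red cells, was at 0.13 (SE 0.52), with -0.86 on the first scan day and 1.11 on the second, Hba-a1 was at -0.51 (unadjusted limma p 0.103, or 0.0416 with scan day as a block) and Alas2 at 0.35. Of 5 thymus genes, 3 were lower, with a median of -0.05, with Dntt at -0.21, Rag1 at -0.15 and Themis at 0.11. Of 6 cartilage genes, 5 were higher, with a median of 0.07, with Col2a1 at 0.18, Matn3 at -0.12 and Matn1 at 0.10. Of 4 mesothelial genes, 2 were lower, with a median of -0.04, with Upk3b at -0.38, Upk1b at -0.09 and Msln at 0.03. In limma, 0 genes of the erythroid, thymus, cartilage and mesothelial lists had an unadjusted p under 0.05.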
